A study of Mus musculus with 5 samples.

Results

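Caspases are proteases that carry out apoptosis or, as with Casp1, act in inflammation. This group joins 5 of them with the adaptor that activates Casp9, with proteins that hold caspases in check and with Diablo, which counters those proteins. The 10 genes were Apaf1, Casp1, Casp2, Casp6, Casp8, Casp9, Diablo, Xiap, Birc2 and Birc3. Every probe set for which the platform annotation gives 1 of these as its sole gene symbol was taken, which found 22 of 45037 probe sets and all 10 genes. Xiap had 7 probe sets, Casp9 had 3, Apaf1, Casp6, Diablo and Birc3 had 2 each, and Casp1, Casp2, Casp8 and Birc2 had 1 each.

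RNA levels came from Affymetrix mouse arrays hybridised with RNA of KLS cells, a sorted blood-forming fraction defined by c-Kit and Sca-1 and by the absence of lineage markers, which includes haematopoietic stem cells and multipotent progenitors. The Rb family deficient group (3 arrays) was Rb -/- p130 -/- p107-/-, and the wild-type group (2 arrays) was Rb +/+ p130 +/+ p107+/-, so the controls carried 1 intact p107 allele. In both groups recombination was induced at 6 weeks of age with Mx1-Cre, whose promoter answers to interferon and is active in blood cells and in other tissues, and cells were sorted 2 months later; the labels describe both groups as otherwise untreated. The labels do not say whether an array holds 1 animal or a pool, so a p-value here reflects the spread among these 5 arrays, part of which may be technical.

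Apoptosis by the mitochondrial route begins when released cytochrome c binds Apaf1, which assembles into the apoptosome and activates Casp9. Casp8 starts the route from death receptors, Casp2 responds to the PIDDosome, and executioner caspases such as Casp6 then cleave cell structures. The inhibitor of apoptosis proteins (IAPs) restrain this: Xiap binds caspases directly, Birc2 and Birc3 are ubiquitin ligases at tumour necrosis factor receptors, and Diablo (Smac) frees caspases from them. The pocket proteins removed here restrain E2F factors, and E2F1 can activate transcription of Apaf1.

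Promoter windows of 300 bases (250 before the start site to 50 after it, RefSeq, GRCm38.p6, 5′ to 3′ on the gene's strand) are shown for the 3 genes with the smallest p-values in this comparison, Apaf1 (chr10:91082694-91082993, minus strand), Casp6 (chr3:129901165-129901464, plus strand) and Casp8 (chr1:58802252-58802551, plus strand). Casp2 (chr6:42264735-42265034, plus strand) is added because it held the sole E2F word among the members, a choice made after the match was seen. Capitals mark that word.
Apaf1: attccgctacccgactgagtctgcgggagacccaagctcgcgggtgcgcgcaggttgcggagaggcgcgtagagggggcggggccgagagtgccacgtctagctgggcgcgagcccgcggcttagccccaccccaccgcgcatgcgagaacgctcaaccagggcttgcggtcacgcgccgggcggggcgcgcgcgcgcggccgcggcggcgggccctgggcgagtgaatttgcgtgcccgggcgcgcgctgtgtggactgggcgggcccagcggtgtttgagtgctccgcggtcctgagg
Casp6: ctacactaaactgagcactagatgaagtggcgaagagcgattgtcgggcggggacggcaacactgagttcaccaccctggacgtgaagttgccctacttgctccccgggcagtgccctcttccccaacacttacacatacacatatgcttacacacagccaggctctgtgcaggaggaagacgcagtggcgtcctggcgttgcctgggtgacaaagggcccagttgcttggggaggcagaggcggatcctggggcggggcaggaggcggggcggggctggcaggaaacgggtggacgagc
Casp8: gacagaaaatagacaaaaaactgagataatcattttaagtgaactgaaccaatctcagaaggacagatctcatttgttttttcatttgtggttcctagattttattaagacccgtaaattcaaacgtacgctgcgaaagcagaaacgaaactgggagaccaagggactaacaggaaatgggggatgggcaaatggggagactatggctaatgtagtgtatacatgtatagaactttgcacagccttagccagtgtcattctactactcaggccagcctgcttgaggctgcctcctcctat
Casp2: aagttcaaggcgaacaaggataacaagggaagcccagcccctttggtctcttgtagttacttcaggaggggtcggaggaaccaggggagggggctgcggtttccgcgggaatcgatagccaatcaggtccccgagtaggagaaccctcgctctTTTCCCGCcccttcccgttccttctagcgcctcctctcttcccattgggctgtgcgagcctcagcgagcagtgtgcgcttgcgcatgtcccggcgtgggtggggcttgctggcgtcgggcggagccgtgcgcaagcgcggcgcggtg

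All 10 genes matched the promoter table, with 13 windows. The start site used for the Casp8 window lies 7269 bases downstream of the gene's outermost annotated start. Those of the Xiap windows lie 8785, 8223 and 11629 bases downstream, and those of the other windows 0 to 325 bases. On both strands 4 E2F words were searched (TTTCCCGC, TTTCGCGC, TTTGGCGC and TTTGCCGC), and 1 member window held a match, against 2.26% of all 32851 windows. In Casp2 the word TTTCCCGC began at position -97, counted from the start site. An interferon element (AAANNGAAA) was in 1 window of Birc2 and in that of Birc3, against 10.6% of all windows, and the NF-kB words GGACTTTCC and GGAATTTCC were in none of the 13 windows, against 0.658% of all windows. These matches describe letters in the windows and are not evidence of binding.

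None of the 10 genes passed the test between Rb family deficient and wild-type KLS cells. Levels are log2 intensities, differences are deficient minus wild type, and a call needs a Benjamini-Hochberg adjusted p under 0.05 in limma. Over all probe sets 0 of 22 members were called, against a background of 0.491% of 45037. With each gene represented by its brightest probe set, 0 of 10 genes were called, against a background of 2.24% of 18193. At an unadjusted p under 0.05, 3 of 10 genes differed, Apaf1 upward and Casp6 and Casp8 downward, against 18.7% of all genes, and 3 of 22 probe sets did, against 14.1% of all probe sets. The same 3 genes were those whose groups of arrays did not overlap, against 35.1% of all genes; over probe sets it was 3 of 22, against 30.5%. The median absolute difference was 0.18 over the members and 0.15 over all genes, and the signed median was -0.12 over the members and -0.01 over all genes. All values below come from the fit with 1 probe set per gene unless stated.

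**Figure D1:**
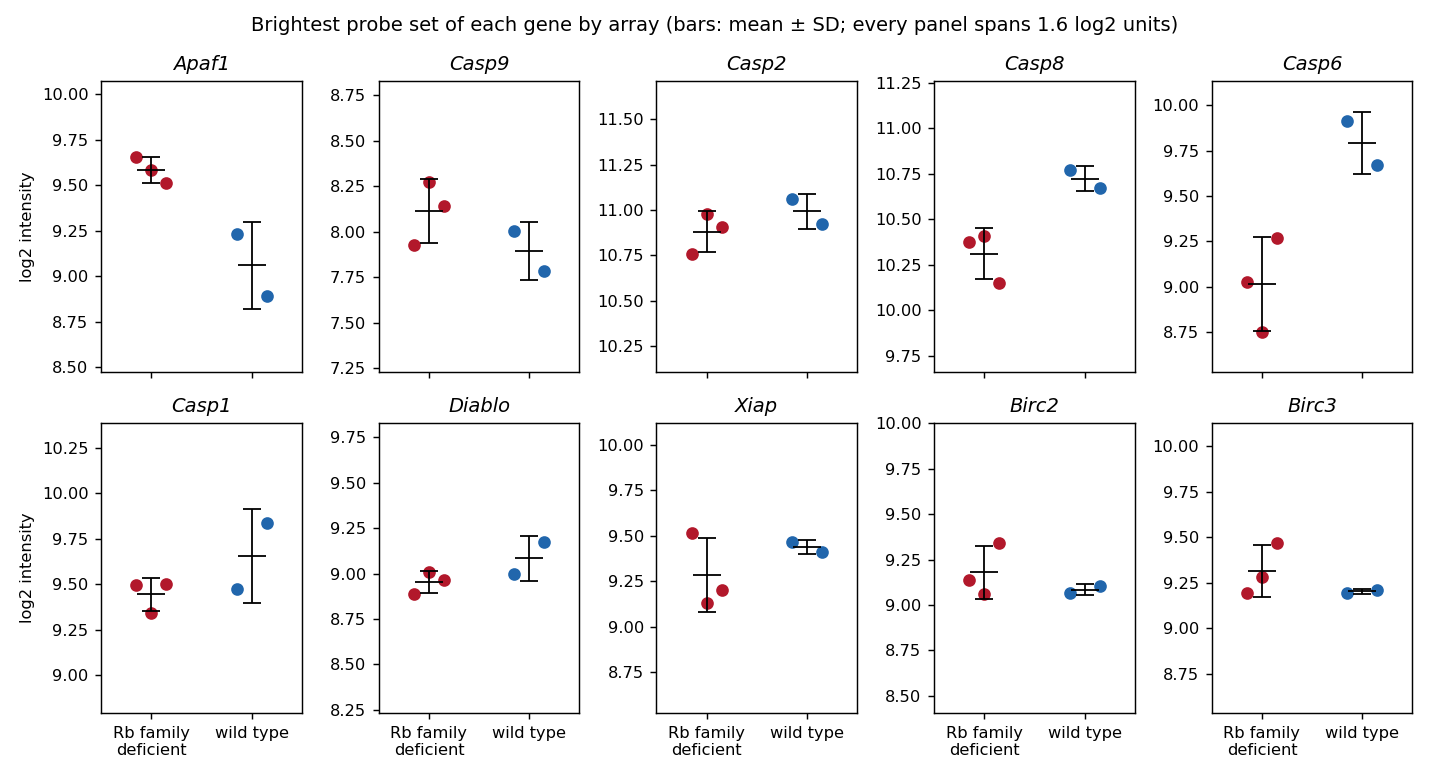
Log2 intensity of the brightest probe set of each gene on the 3 Rb family deficient arrays (red, left) and the 2 wild-type arrays (blue, right), with mean ± SD, every panel spanning the same range. The groups are separate for Apaf1, Casp8 and Casp6 and overlap for the other 7 genes.

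Apaf1, the scaffold of the apoptosome, had the highest upward difference of the members. Its brighter probe set (1452870_at) read 9.66, 9.58 and 9.51 in deficient cells, against 9.23 and 8.89 in wild-type cells. Every deficient array lay above both wild-type arrays, and the wild-type arrays were farther apart from each other than the deficient ones. The means were 9.58 ± 0.07 (SD, n = 3) and 9.06 ± 0.24 (SD, n = 2), a difference of 0.53 (SE 0.14; limma, unadjusted p = 0.00886, adjusted p = 0.119). As a ratio this was 1.44, with a 95% confidence interval of 1.14 to 1.82. The other probe set (1450223_at) read 4.24, 3.84 and 4.41 in deficient cells, against 3.89 and 4.23 in wild-type cells. All of these lie below the array medians of 4.71 to 4.74, where the array carries little signal, so the Apaf1 difference rests on 1 probe set.

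Casp9, the initiator that the apoptosome activates, read 7.92, 8.27 and 8.14 in deficient cells, against 8.005 and 7.783 in wild-type cells (1437537_at). The groups overlapped, and the difference was 0.22 (SE 0.15, adjusted p = 0.524). The 95% confidence interval of its ratio ran from 0.907 to 1.496. A dimmer Casp9 probe set (1457816_at) gave a difference of 0.01 in the fit over all probe sets (SE 0.10), and the third (1426125_a_at) lay near the array medians with a difference of -0.01.

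Casp8, the initiator recruited to death receptors, was lower in all 3 deficient arrays than in either control. Its probe set read 10.38, 10.41 and 10.15 in deficient cells, against 10.77 and 10.67 in wild-type cells (1424552_at). The means were 10.31 ± 0.14 (SD, n = 3) and 10.72 ± 0.07 (SD, n = 2), a difference of -0.41 (SE 0.13; limma, unadjusted p = 0.0171, adjusted p = 0.160). The ratio was 0.751, with a 95% confidence interval of 0.606 to 0.931.

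Casp2, the initiator tied to the PIDDosome and the gene with the E2F word shown above, read 10.76, 10.98 and 10.91 in deficient cells, against 11.06 and 10.92 in wild-type cells. The groups overlapped and the difference was -0.11 (SE 0.12, adjusted p = 0.731). Its ratio interval ran from 0.755 to 1.14.

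Casp6, an executioner caspase known for cleaving lamin A, had the largest difference of the 10 genes and the smallest adjusted p. The brighter probe set (1415995_at) read 9.03, 8.75 and 9.27 in deficient cells, against 9.91 and 9.67 in wild-type cells. The highest deficient array, at 9.27, lay below the lower control, at 9.67. The means were 9.02 ± 0.26 (SD, n = 3) and 9.79 ± 0.17 (SD, n = 2), a difference of -0.78 (SE 0.18; limma, unadjusted p = 0.00464, adjusted p = 0.0895, or 0.136 over all probe sets). The ratio was 0.584, with a 95% confidence interval of 0.432 to 0.790. The other Casp6 probe set (1458715_at) read 3.86, 3.69 and 3.74 in deficient cells, against 4.62 and 3.73 in wild-type cells, all below the array medians.

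Casp1, the inflammatory caspase that matures interleukin 1 beta and interleukin 18, read 9.49, 9.34 and 9.50 in deficient cells, against 9.47 and 9.84 in wild-type cells. The groups overlapped, with wild type 1 inside the range of the deficient arrays and wild type 2 above it. The difference was -0.21 (SE 0.15, adjusted p = 0.544), and it was -0.03 without wild type 2 and -0.39 without wild type 1.

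Diablo, the mitochondrial antagonist of IAPs, read 8.89, 9.01 and 8.96 in deficient cells, against 8.997 and 9.172 in wild-type cells on its brighter probe set (1417683_at). The groups overlapped by a small margin, and the difference was -0.13 (SE 0.11, adjusted p = 0.647; ratio interval 0.752 to 1.11). Its dimmer probe set (1425768_at) differed by -0.07 in the fit over all probe sets.

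Xiap, which binds and blocks caspases, read 9.51, 9.13 and 9.20 in deficient cells, against 9.47 and 9.41 in wild-type cells on its bright probe set (1437533_at). Deficient 1 lay above both controls and the other deficient arrays below them, giving a difference of -0.16 (SE 0.15, adjusted p = 0.680; ratio interval 0.701 to 1.15). Of its other 6 probe sets, 1450232_at read 5.79, 5.60 and 5.74 in deficient cells, against 5.67 and 5.73 in wild-type cells, a difference of 0.01. The remaining probe sets lay at or below the array medians on most arrays, with differences from -0.02 to 0.27 in the fit over all probe sets.

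Birc2 and Birc3 (cIAP1 and cIAP2) are neighbours on chromosome 9 with 0 protein-coding genes between them in the RefSeq table. Birc2 read 9.14, 9.06 and 9.34 in deficient cells, against 9.07 and 9.10 in wild-type cells, a difference of 0.10 (SE 0.13, adjusted p = 0.781). Birc3 read 9.19, 9.28 and 9.47 in deficient cells, against 9.19 and 9.21 in wild-type cells (1421392_a_at), a difference of 0.11 (SE 0.13, adjusted p = 0.738). For both genes the controls lay within the range of the deficient arrays, and deficient 3 was the highest array. A dimmer Birc3 probe set (1425223_at) pointed the other way, with 5.52, 5.84 and 5.18 in deficient cells, against 6.00 and 5.53 in wild-type cells, and also overlapped. The ratio intervals ran from 0.863 to 1.32 for Birc2 and from 0.875 to 1.33 for Birc3, each for the brightest probe set alone. On 1425223_at the interval of the log2 difference was wider, from -0.83 to 0.33 in the fit over all probe sets.

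**Figure D2:**
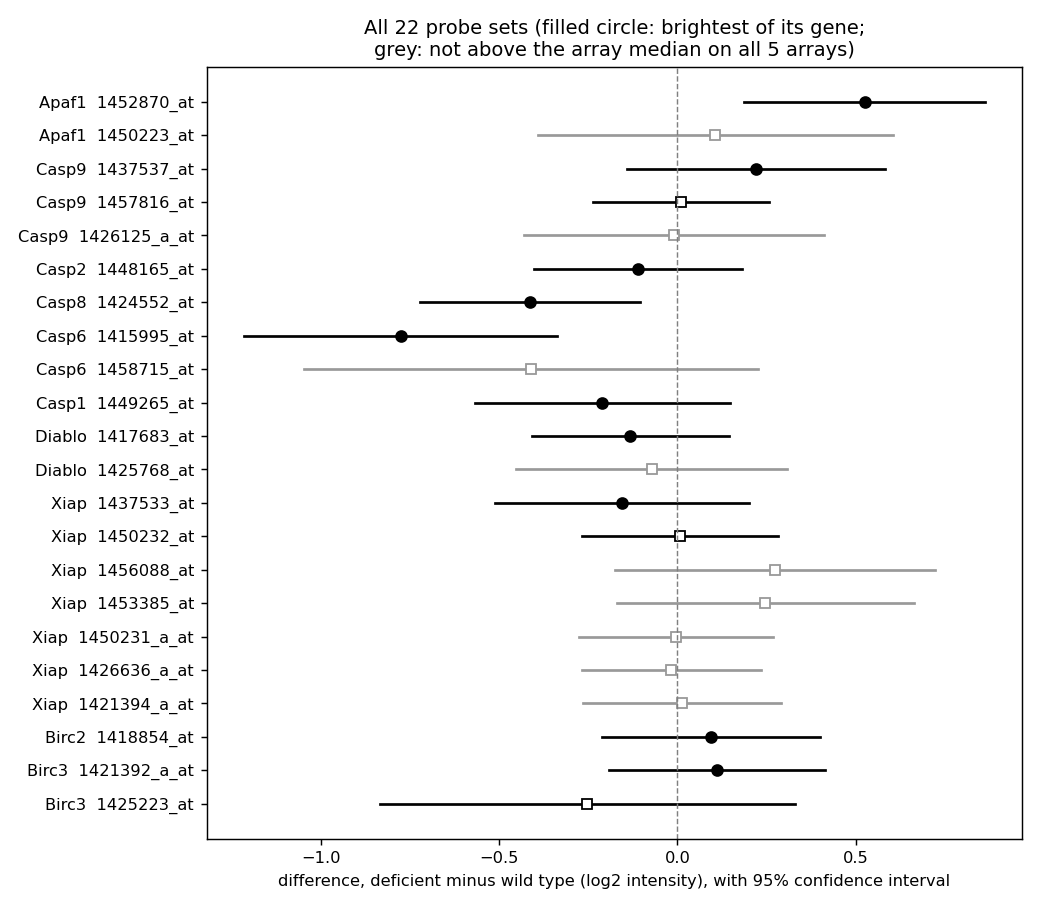
Difference (deficient minus wild type, log2 intensity) with its 95% confidence interval for each of the 22 probe sets, from the fit over all probe sets. Filled circles are the brightest probe set of a gene, open squares the others, and grey marks those not above the array median on all 5 arrays. Only the intervals of Apaf1 1452870_at, Casp8 and Casp6 1415995_at leave out 0, before adjustment for 45037 tests.

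Of the 22 probe sets, 13 lay above the array median on all 5 arrays, 6 lay below it on all 5 and 3 were mixed. Each gene's brightest probe set was among the 13. Leaving out each array in turn changed the sign of no member's difference, and 0 of 10 members passed in any of those 5 fits. The Apaf1 difference ran from 0.36 without wild type 2 to 0.70 without wild type 1, that of Casp6 from -0.90 without deficient 3 to -0.64 without deficient 2, and that of Casp8 from -0.46 without wild type 2 to -0.33 without deficient 3.

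**Figure D3:**
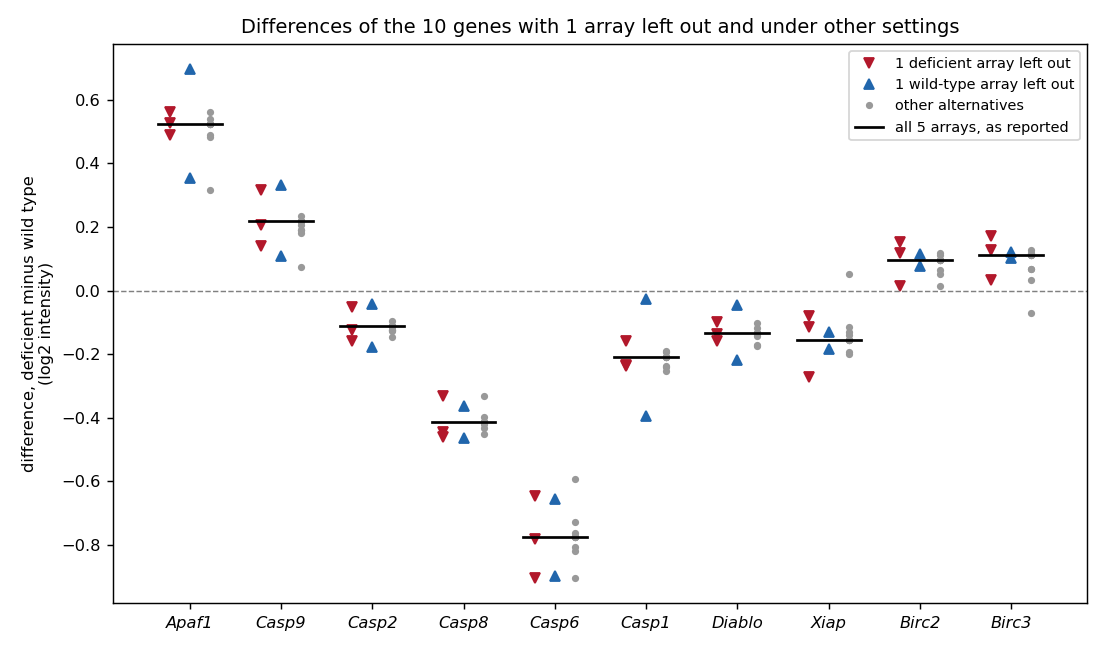
Differences of the 10 genes (log2 intensity, deficient minus wild type) with all 5 arrays (black line), with 1 array left out (triangles) and under the other settings tried (grey). Apaf1 stays between 0.32 and 0.70, Casp6 between -0.90 and -0.59 and Casp8 between -0.46 and -0.33, while Xiap and Birc3 each cross 0 under 1 other setting.

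The rest of the pathway was described from 8 lists of 59 genes, 51 of which had a usable probe set (the rest were not analysed here). In deficient cells 4 of 51 were called lower and 0 called higher, against 1.41% and 0.83% of all genes. Means were lower for 24 of the 51 and higher for 27. At an unadjusted p under 0.05, 8 were lower and 7 higher, against 9.86% and 8.79% of all genes, and the median difference was 0.03. The 4 genes were Gsn, Il18, Traf1 and Septin4.

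Gsn, which encodes the actin-severing caspase substrate gelsolin, had the largest fall. It read 8.24, 8.13 and 7.98 in deficient cells, against 10.44 and 10.06 in wild-type cells, a difference of -2.14 (SE 0.16, limma adjusted p = 0.00556). The brightest Gsn probe set carries probes that may match other transcripts (1456312_x_at), but 1415812_at, without that suffix, differed by -2.30 as well. With 1 array left out Gsn passed in 5 of 5 fits, with differences from -2.33 to -1.94. It was the sole gene of the 4 to do so.

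Il18, a cytokine gene whose product Casp1 matures, read 7.14, 7.17 and 7.79 in deficient cells, against 9.31 and 9.16 in wild-type cells. The groups were far apart, with a difference of -1.87 (SE 0.22, limma adjusted p = 0.0207). In the same list, 6 did not pass. Lower means were found for 6 of the 7 measured genes, against 9446 of all 18193 genes. Il1b, the other cytokine matured by Casp1, differed by -1.27 (limma adjusted p = 0.0632). The DNA sensor gene Aim2 differed by -0.60 (adjusted p = 0.226) and the adaptor gene Pycard by -0.28 (adjusted p = 0.353). Aim2 lay below the array medians on every array except wild type 1.

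Traf1, an adaptor that binds Birc2 and Birc3 at tumour necrosis factor receptors through Traf2, read 4.42, 4.29 and 4.03 in deficient cells, against 5.84 and 5.29 in wild-type cells. The difference was -1.32 (SE 0.20, limma adjusted p = 0.0382), with all deficient values below the array medians, so its size may be understated. Without wild type 1 it was -0.62. Another Traf1 probe set (1445452_at) differed less, by -0.52 in the limma fit over all probe sets (adjusted p = 0.366), with separate groups. The other 13 genes of the death receptor list did not pass, among them the receptor gene Fas (-0.52, with all 5 arrays below the medians), the Casp8-associated gene Casp8ap2 (0.59) and the adaptor gene Tradd (-0.26).

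Septin4, whose ARTS isoform antagonises Xiap in human and mouse cells, read 5.81, 5.33 and 5.61 in deficient cells, against 6.64 and 7.07 in wild-type cells. The difference was -1.27 (SE 0.20, limma adjusted p = 0.0381), and a further probe set (1455422_x_at) differed by -1.02. Neither probe set is assigned to an isoform here. The other IAP antagonist genes did not pass: Htra2 differed by 0.29, Gspt1 by 0.34 and Xaf1 by 0.04. The Gspt1 value is from 1452168_x_at, whose suffix marks probes that may match other transcripts. In the limma fit over all probe sets, 1435000_at differed by 0.72 (adjusted p = 0.0688) and 1455173_at by 0.75 (adjusted p = 0.111), both with separate groups. The remaining Gspt1 probe sets overlapped, with differences of 0.29 (1426736_at), 0.08 (1426737_at) and -0.51 (1446550_at).

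Leaving out a deficient array reduced the count of pathway genes called lower to 1 without deficient 1, 1 without deficient 2 and 2 without deficient 3. Il18 passed only without deficient 3, and Traf1 and Septin4 passed in none of these fits.

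The other lists held no gene past the threshold. Among 4 measured genes of other caspases and the paracaspase was Casp12, a mouse caspase of the inflammatory group. It read 7.21, 7.03 and 7.47 in deficient cells, against 8.22 and 7.94 in wild-type cells (1418981_at). The difference was -0.85 (limma adjusted p = 0.0681). Another Casp12 probe set (1449297_at) differed by -0.70 in the limma fit over all probe sets (adjusted p = 0.401), with overlapping groups. Casp4 lies between Casp1 and Casp12 on chromosome 9, with 0 other protein-coding genes between neighbours, and differed by 0.52 in the opposite direction (adjusted p = 0.351). Malt1, the paracaspase gene, differed by 0.50 (limma adjusted p = 0.139) and Casp14 by 0.31. The Casp14 value is from 1443787_x_at, whose suffix marks probes that may match other transcripts. In the list drawn up for cytochrome c and the apoptosome, Hspa4 differed by 0.58, Cse1l by 0.51 and Anp32a by -0.18 (limma adjusted p from 0.151 to 0.505). The Hspa4 value is from 1416146_at. Another bright Hspa4 probe set (1435194_at) differed by 0.02 in the fit over all probe sets, with overlapping groups. Among IAP genes, the large ligase gene Birc6 differed by 0.37 and Birc5, which encodes survivin and acts mainly in mitosis, by 0.27. Naip5 differed by 1.47 with a wide spread, reading 7.25, 7.83 and 4.12 in deficient cells, against 5.60 and 4.26 in wild-type cells. Of the PIDDosome genes that act on Casp2, Pidd1 differed by 0.33 and Cradd by -0.30. Among caspase substrates, the lamin gene Lmnb1 differed by 0.69, the kinase gene Rock1 by 0.48 and the repair gene Parp1 by 0.24, and none passed.

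**Figure D4:**
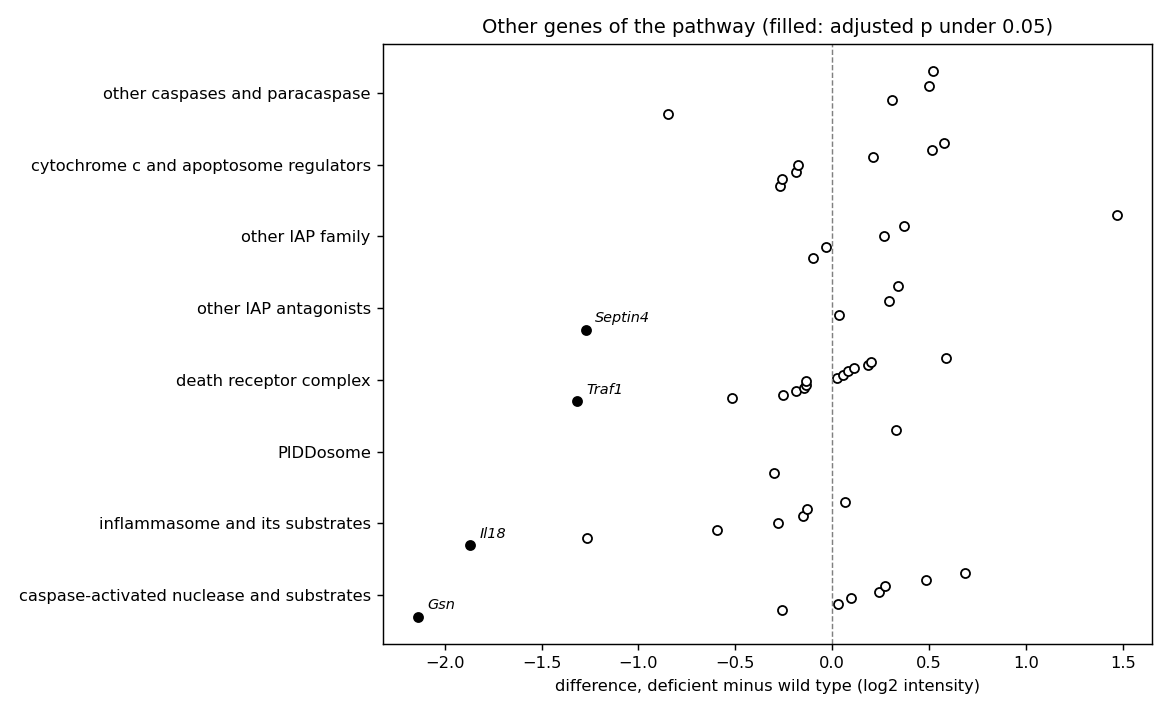
Difference (deficient minus wild type, log2 intensity) of each of the 51 measured pathway genes by list, with genes past the threshold filled and named. The 4 named genes lie between -2.14 and -1.27, and the other genes lie on both sides of 0.

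Some marker lists also differed between the groups, and their part in the results above was not tested. The summed intensity of 10 neutrophil genes was 1331 to 2348 in deficient cells, against 49628 to 60664 in wild-type cells, with 9 of 10 genes called lower. For 11 monocyte, macrophage and dendritic cell genes it was 2823 to 3693 in deficient cells, against 5687 to 8160 in wild-type cells. Of these genes 8 of 11 were lower and 1, Cd74, was called. H2-Aa, the brightest of the list on wild type 1, read 7.68, 8.15 and 9.26 in deficient cells, against 11.90 and 10.22 in wild-type cells. Ccr2, Cd68 and Cx3cr1 had higher means in deficient cells, with separate groups for Ccr2 (difference 1.00, limma adjusted p = 0.146). Sums without Cd74, H2-Aa, H2-Ab1 and H2-Eb1 were not tested. For 10 B and plasma cell genes it was 1193 to 1296 in deficient cells, against 15958 to 28980 in wild-type cells. All 10 had lower means, and 3 were called, Igha, Jchain and Igll1. The antibody genes Igha, Ighm and Jchain were the brightest of this list on both wild-type arrays and carry most of its sum. Among the other genes, Pax5 differed by -0.003 and Cd79b by -0.44 (limma adjusted p = 0.346). Sums without the antibody genes were not tested. Of 10 T and NK cell genes 2 were called lower, and the sums overlapped. RMA intensities do not reach 0, so no marker is at 0; the neutrophil marker Itgam read 3.34 to 3.80 on all arrays, below the medians. In sorted bulk RNA, fewer cells of a type and less RNA per cell cannot be told apart. The lists of sort markers, interferon-stimulated genes, megakaryocyte genes and erythroid genes had overlapping sums. In the megakaryocyte list 1 of 6 genes, the integrin gene Itga2b, was called higher, with 11.19, 11.36 and 11.58 in deficient cells, against 10.18 and 10.20 in wild-type cells (difference 1.19, limma adjusted p = 0.0219). Kit read 10.88 to 11.25 in deficient cells, against 10.83 to 11.08 in wild-type cells. The Sca-1 gene Ly6a was not analysed here. The T cell gene Cd3g read 7.26 on wild type 2 and 3.57 to 3.79 on the other 4 arrays. Of the deleted genes, Rbl1 (p107) differed by -3.04 on its brightest probe set (limma over all probe sets, adjusted p = 0.0513), Rb1 by -0.36 (adjusted p = 0.732) and Rbl2 by -0.46 (adjusted p = 0.473), the last 2 with overlapping groups and with deficient 1 above both controls for Rb1 (8.93, against 8.84 and 8.65), on probe sets whose place relative to the deleted exons is not given in the sources used here.

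**Figure D5:**
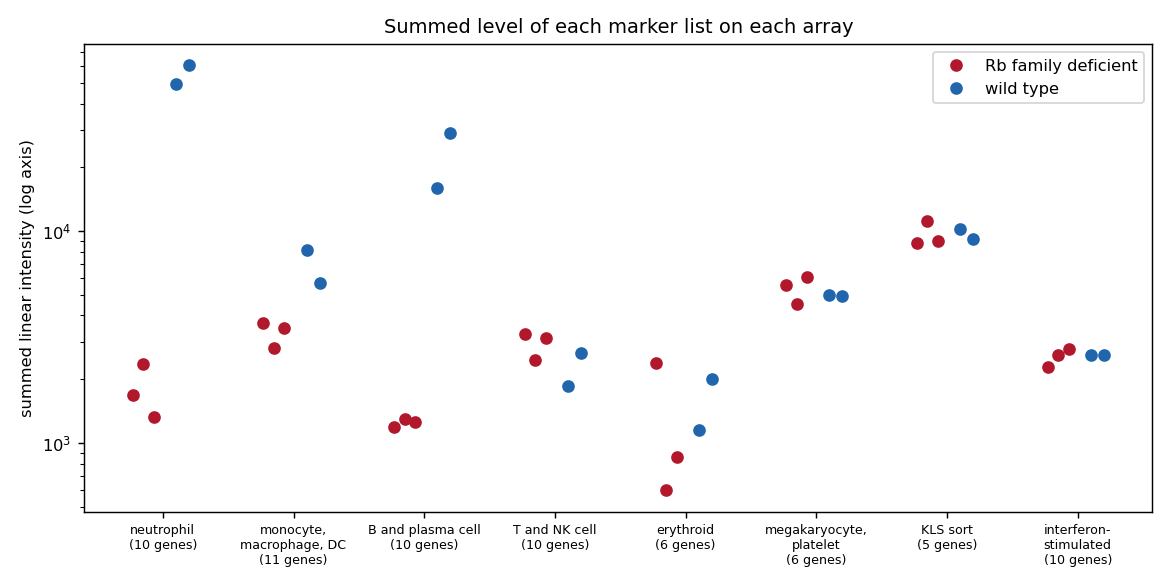
Summed linear intensity of each marker list (log axis) on the 3 Rb family deficient arrays (red) and the 2 wild-type arrays (blue). On the deficient arrays the sums of 3 lists lie below those of both wild-type arrays. These are the neutrophil list, the monocyte, macrophage and dendritic cell list, and the B and plasma cell list. The sort markers overlap.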

How the data were processed

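The deposited table gives an intensity for each probe set on each array. Those intensity values were produced by the authors with RMA, per the submitters' processing notes; RMA as a method corrects background, sets the arrays to 1 distribution and summarises each set's probes, and no version is stated, nor whether the array that the study excluded (1 of 6) entered the normalization. After RMA a shift shared by all transcripts is lost, and differences at low intensity are compressed. For arrays no depth applies: their number limits the precision.

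Here log2 was taken of the values (6.96 to 31249). Gene symbols came from GEO's annotation of the platform. limma 3.58.1 in R 4.3.3 (lmFit, eBayes, two-sided, no covariate) was fitted to all 5 arrays over 45037 probe sets, leaving out 64 AFFX controls, and again over 18193 genes, each by its probe set with the highest mean. Intervals are at 95% confidence. The fit was tested on simulated data. All 5 value columns matched a sample by accession. The members and lists were chosen with earlier results of these data known. All 10 members were named, and of each pathway list the called genes and up to 3 others with the smallest p, plus Casp4, chosen after its values were seen as the neighbour of Casp1; marker genes were named for their list. The replicate numbers of the titles are not said to mark a shared animal or batch. Alternatives were other normalizations, probe set filters, priors, array weights, an adjusted p under 0.1, the replicate block, averaging a gene's probe sets and each array left out.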

Additional observations from a re-analysis of the deposited data

How the results depend on the processing

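Under every setting at the threshold of 0.05 that kept both wild-type arrays, limma called 0 member probe sets and 0 of 10 member genes. At an unadjusted p under 0.05, 3 probe sets and 3 genes differed, as reported. These counts were 2 and 2 with the replicate block, and 4 and 3 without deficient 2. At an adjusted p under 0.1, 1 gene, Casp6, was called lower. When every probe set of a gene was averaged, the difference of Xiap turned to 0.052 and that of Birc3 to -0.071; both averages include dim probe sets. No other member difference changed sign: 2 of 100 values under other settings and 0 of 50 with 1 array left out did. The adjusted p of Casp6 ran from 0.0775 to 0.298, that of Apaf1 from 0.112 to 0.312 and that of Casp8 from 0.136 to 0.428. The count of pathway genes called, 4, was 5 with the intensity trend and 6 at an adjusted p under 0.1, all lower. With the replicate block, which leaves 1 residual degree of freedom, it was 0 (14 at an unadjusted p under 0.05). Gsn then differed by -2.07 (limma adjusted p = 0.0610). With 1 deficient array left out the count was 1 to 2. The titles' numbers are not known to pair the arrays. The deviations of wild type 1 from its group mean correlated at -0.05, 0.02 and 0.03 with those of deficient 1, 2 and 3. With 2 wild-type arrays, the deviation of wild type 2 is that of wild type 1 with the sign reversed. The correlations therefore cannot decide whether the arrays are paired.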
